A study of Mus musculus with 10 samples.

Results

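The endothelial genes of the kidney were examined here as a set of 10 genes chosen by name as markers of the renal vessel wall: Pecam1, Kdr, Flt1, Emcn, Egfl7, Cdh5, Eng, Plvap, Ehd3 and Sox17. All 10 were found among the 43629 genes of the count table. Kidneys came from 10 male mice of the UM-HET3 stock, a genetically heterogeneous cross of inbred strains, collected at 4 months of age. The 6 control mice ate the Purina 5LG6 diet, and the 4 treated mice ate that diet with 10 ppm rilmenidine for 1 month from 3 months of age. Rilmenidine lowers blood pressure through imidazoline receptors and alpha-2 adrenoceptors, and the study asked what it does to gene expression in mouse tissues. No transgene or Cre is named for either group. Whole kidney was sequenced, so every value below averages over all its cell types, and a gene that falls because fewer endothelial cells were present cannot be told apart from one that falls because each cell held less of its RNA. Separate kidneys of a group are not stated to come from separate litters or cages, so p-values measure the spread between these libraries.

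Endothelial cells line every renal vessel, from the arteries to the fenestrated capillaries of the glomerulus and the peritubular capillaries that surround the tubules. Their upkeep depends on vascular endothelial growth factor A, which podocytes and tubule cells release and which endothelial cells receive through the receptors encoded by Kdr and Flt1. Cadherin and immunoglobulin-type proteins hold the cells to one another, a co-receptor for bone morphogenetic proteins keeps vessels stable, and transcription factors of the ETS and SOX families maintain endothelial identity.

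ETS factors such as Erg and Fli1 bind a short sequence that many endothelial promoters carry, and its 7-base form CAGGAAG, read on both strands (CTTCCTG on the other), was searched in the 250 bases before the RefSeq transcript starts. Windows were given for 6 of the 10 genes (8 windows), and 3 of the 8, belonging to Emcn and Egfl7, held the motif, against 10.8% of all 32851 windows of that length. The other 4 genes with a window, Kdr, Flt1, Eng and Ehd3, had no match to these letters there. A window of each is printed because it holds the motif (in capitals), from the + strand of GRCm38.p6. The Emcn window lies at chr3:137340828-137341077, and the Egfl7 window at chr2:26583615-26583864, before an internal start within the gene. Egfl7 also contains the gene of miR-126a, an endothelial microRNA, whose 3p strand lies at chr2:26591402-26591423 and is printed with its seed (bases 2 to 8) in capitals. The row of the microRNA gene was at 0 counts in every library, and mature microRNAs carry no poly(A) tail, so its level was not measured.
Emcn: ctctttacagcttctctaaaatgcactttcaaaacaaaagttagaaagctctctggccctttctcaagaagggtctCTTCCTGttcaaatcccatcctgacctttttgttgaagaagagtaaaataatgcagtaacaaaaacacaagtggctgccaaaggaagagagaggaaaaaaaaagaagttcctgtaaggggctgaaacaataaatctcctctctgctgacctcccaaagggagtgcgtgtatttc
Egfl7: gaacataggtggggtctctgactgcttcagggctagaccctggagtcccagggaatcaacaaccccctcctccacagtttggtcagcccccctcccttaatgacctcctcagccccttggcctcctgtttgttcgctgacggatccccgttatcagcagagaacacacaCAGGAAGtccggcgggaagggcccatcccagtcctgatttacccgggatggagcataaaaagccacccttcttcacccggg
mmu-miR-126a-3p: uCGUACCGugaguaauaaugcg

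Levels are given as normalized CPM, a gene's share of a library's reads (CPM) after division by a size factor that corrects for library composition (RLE). Libraries held 863605 to 2559118 counts in the control group (median 1489031) and 1813465 to 3232063 with rilmenidine (median 2483263), a difference with p = 0.0571 in a two-sided exact permutation test over all 210 splits, whose smallest p is 0.00476. At this depth the 10 genes rested on modest counts, from 5 to 23 reads a library for Cdh5 up to 74 to 305 for Plvap. Malat1, a long RNA kept in the nucleus, lay between 1182 and 2100 normalized CPM in control 1, 3, 4 and 5 and between 284 and 398 in the other 2 control and all 4 rilmenidine kidneys (log2 difference −1.41, p = 0.0619 in the same exact permutation test). Values of the 10 genes without those 4 control kidneys are given where the sign turned or the log2 fold change moved by over 1.5 times its size.

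None of the 10 endothelial genes passed the test. Every one of them passed the filter on low counts (at least 6 reads in at least 7 libraries), and 0 of 10 had an adjusted p under 0.05 in the quasi-likelihood test of edgeR. The likelihood ratio test of edgeR also called 0 of the 10 and 44 of all genes. DESeq2 called 60 of all genes and 0 of the 7 endothelial genes to which it gave an adjusted p, giving none for Cdh5, Eng and Sox17. In the quasi-likelihood test 0 of all 10055 genes tested (0.00%) passed as well, with a smallest adjusted p of 0.174. At an unadjusted p under 0.05 there were again 0 of the 10, against 1061 of all genes (10.6%; 4.43% higher and 6.13% lower with rilmenidine). Control and rilmenidine kidneys overlapped in all 10, while 168 of all genes (1.67%) did not overlap. On the log2 scale 6 of the 10 lay below 0 and 4 above, with a median of −0.10 beside 0.00 over all genes tested. A p that misses the threshold does not show that the groups were alike, so the 95% interval of the fold is given for each gene.

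**Figure D1:**
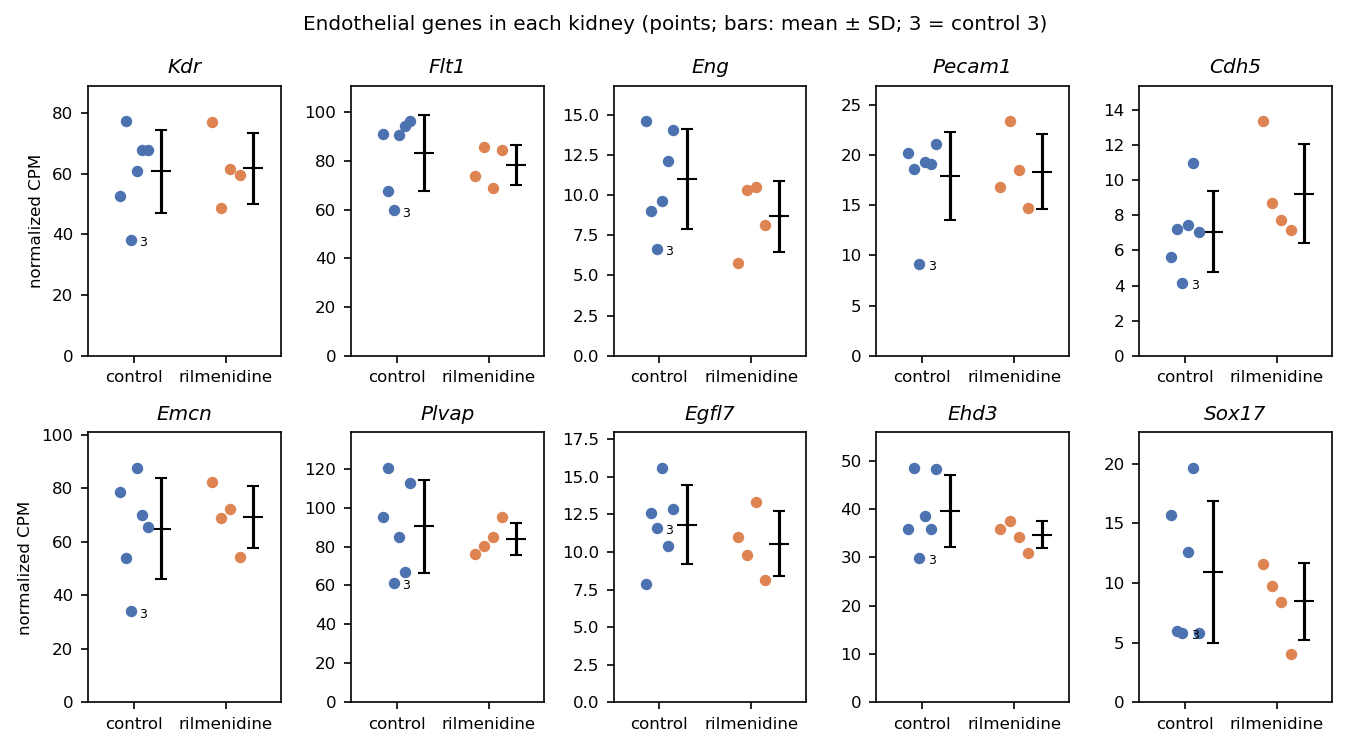
Normalized CPM (vertical axes, each from 0) of the 10 endothelial genes in 6 control and 4 rilmenidine kidneys, each point a kidney and each bar a group mean with its SD. The groups overlap in every panel, and control 3 holds the lowest point in 7 of the 10.

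Kdr encodes VEGF receptor 2, the main signaling receptor for VEGF-A, and lies on the − strand at chr5:75932827-75978458 (GRCm38). In the control kidneys it ranged from 38.2 to 77.3 normalized CPM with a median of 64.3, and rilmenidine kidneys 1 to 4 held 77.1, 48.9, 61.6 and 59.6. The highest kidney of each group stood at nearly the same value, and the lowest was a control. Group means were 60.8 ± 13.8 (SD, n = 6) and 61.8 ± 11.6 (n = 4), a log2 fold change of 0.01 ± 0.18 (SE), with a 95% interval of the fold from 0.771 to 1.31 (unadjusted p = 0.966, adjusted p = 0.995). The sign was unsettled, since the log2 value was −0.23 without the 4 control kidneys high in Malat1 and −0.09 without control 3.

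Flt1 encodes VEGF receptor 1, which binds the ligand tightly and also gives rise to a soluble decoy form that a count per gene cannot separate (chr5:147561604-147726011, − strand). Control kidneys spanned 59.8 to 96.3 normalized CPM with a median of 90.8, and the rilmenidine kidneys held 73.6, 85.8, 68.9 and 84.3. Every rilmenidine value lay below the control median, yet inside the control range. The log2 fold change was −0.09 ± 0.15 (SE), from 83.3 ± 15.5 to 78.2 ± 8.21 normalized CPM, with an interval of the fold from 0.747 to 1.17 (adjusted p = 0.887). Within a kidney the Kdr value was 0.570 to 1.14 times the Flt1 value, and the groups overlapped in that ratio too, with control 2 the highest and rilmenidine 2 the lowest.

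The ligand of both receptors, Vegfa (chr17:46016993-46032369, − strand), had the smallest unadjusted p of the further vessel genes, which are not among the 10. Control kidneys ranged from 80.3 to 163 normalized CPM with a median of 123, and rilmenidine kidneys held 81.8, 80.9, 61.2 and 70.0. The control kidneys split: control 1, 3, 4 and 5 held 110, 142, 137 and 163, whereas control 2 and 6, at 80.3 and 83.8, stood beside the treated ones. The log2 fold change was −0.70 ± 0.19 (SE), from 119 ± 33.3 to 73.5 ± 9.77, with an unadjusted p of 0.00235 that missed the threshold after adjustment (adjusted p = 0.244). The 4 high control kidneys are also the 4 high in Malat1, and without them the log2 value was −0.17. When every gene with 1 count or more was tested the adjusted p was 0.00596, whereas DESeq2 gave 0.0689, and over all settings the log2 value ranged from −0.79 to −0.17.

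**Figure D2:**
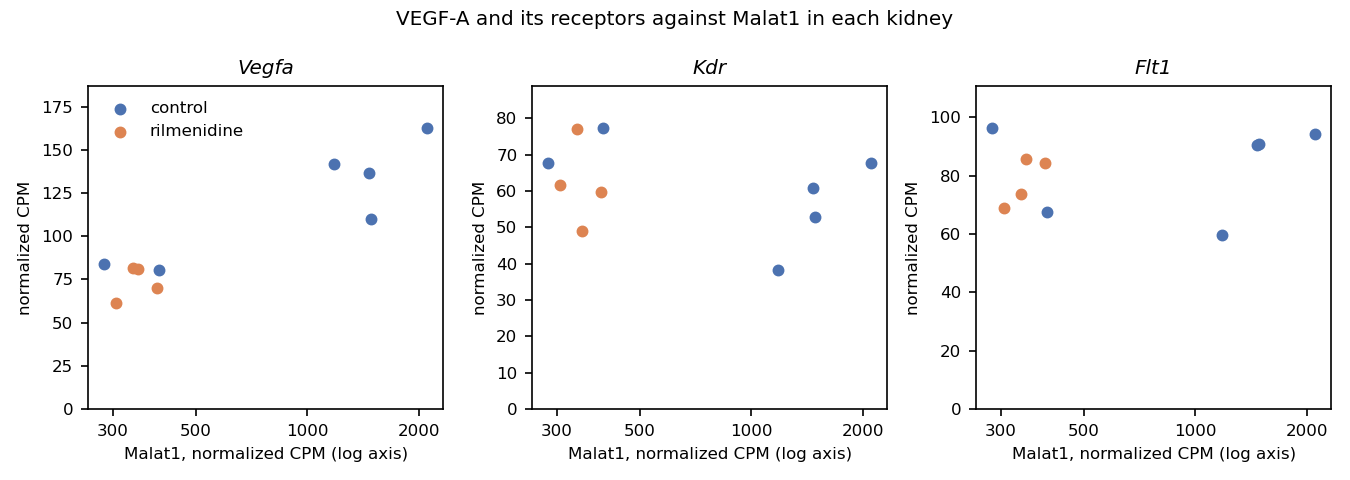
Normalized CPM of Vegfa and of its receptors Kdr and Flt1 (vertical axes) against Malat1 normalized CPM (horizontal log axis), 1 point per kidney and a color per group. Vegfa is 110 or more in the 4 control kidneys above 1000 Malat1 and at most 83.8 in the other 6 kidneys, a split that Kdr and Flt1 do not show.

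Eng encodes endoglin, the co-receptor through which endothelial cells sense BMP9 and BMP10 (chr2:32646595-32682669, + strand). The control kidneys held 6.64 to 14.6 normalized CPM with a median of 10.9, and the rilmenidine kidneys 5.80, 10.3, 10.5 and 8.12. All 4 treated values lay under the control median, and the lowest of all 10 kidneys was rilmenidine 1. The log2 fold change was −0.34 ± 0.28 (SE), from 11.0 ± 3.11 to 8.68 ± 2.21, with an interval of the fold from 0.525 to 1.20 (adjusted p = 0.712). Eng stayed below 0 in all 21 settings that tested it, between −0.47 and −0.15. Its 3′ end overlaps that of Fpgs on the other strand by 61 bases, and since the strand setting of the counting is not stated, reads of the pair may be shared. Fpgs had 1 to 17 reads a library and Eng 8 to 36, and what the overlap cost Eng was not tested.

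Pecam1 encodes CD31, the adhesion protein at endothelial cell borders (chr11:106654217-106750628, − strand). It ranged in the control group from 9.13 to 21.1 normalized CPM with a median of 19.2, and the rilmenidine kidneys held 16.8, 23.3, 18.5 and 14.7. Control 3 stood apart at 9.13, while the other 5 control kidneys lay between 18.6 and 21.1. Means were 17.9 ± 4.38 and 18.3 ± 3.69, a log2 fold change of 0.01 ± 0.23 (SE), with an interval of the fold from 0.720 to 1.41 (adjusted p = 0.993). Leaving out control 3 turned the sign to −0.11, and leaving out the 4 kidneys high in Malat1 gave −0.13.

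Cdh5 encodes VE-cadherin, the cadherin of endothelial adherens junctions (chr8:104101625-104144511, + strand). Control kidneys held 4.15 to 11.0 normalized CPM with a median of 7.10, and rilmenidine kidneys 13.3, 8.69, 7.70 and 7.18. Rilmenidine 1 was the highest of the 10 kidneys and the 4 treated values all exceeded the control median. Means were 7.07 ± 2.29 and 9.23 ± 2.81 on the fewest reads of the 10 genes, and the log2 fold change of 0.32 ± 0.31 (SE) was the highest of the 10 genes without passing the test (interval of the fold 0.796 to 1.96, adjusted p = 0.762). It was 0.11 without rilmenidine 1 and 0.50 without control 5.

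Emcn encodes endomucin, a sialomucin that coats capillary and venous endothelium (chr3:137341067-137432185, + strand). In the control kidneys it ranged from 34.0 to 87.7 normalized CPM with a median of 67.7, and in the rilmenidine kidneys it was 82.3, 69.0, 72.1 and 54.3. Of the treated kidneys 3 lay above the control median, and the lowest of all 10 was again control 3. Means of 64.9 ± 19.0 and 69.4 ± 11.6 gave a log2 fold change of 0.09 ± 0.20 (SE) with an interval of the fold from 0.791 to 1.44 (adjusted p = 0.924). The value was −0.03 without control 3, and 0.20 without the 4 control kidneys high in Malat1.

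Plvap encodes the protein of the diaphragms that span fenestrae and caveolae, found in peritubular capillaries and lacking in mature glomerular ones (chr8:71497765-71511752, − strand). Control kidneys spread from 61.4 to 120 normalized CPM around a median of 90.0, and rilmenidine kidneys stood closer together at 76.0, 80.4, 84.7 and 95.2. The log2 fold change was −0.11 ± 0.18 (SE), from 90.3 ± 23.8 to 84.1 ± 8.26, with an interval of the fold from 0.715 to 1.21 (adjusted p = 0.892). Without the 4 control kidneys high in Malat1, whose 2 remaining controls held 120 and 113, the log2 value was −0.47 (unadjusted p = 0.0116, adjusted p = 0.999; 3.22% of all genes were at an unadjusted p under 0.05 in that setting). Plvap shares 1819 bases at its 3′ end with Gtpbp3 on the other strand, which had 5 to 26 reads.

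Ehd3, a membrane trafficking protein of glomerular capillary endothelium, is the counterpart of Plvap among the genes of a vascular bed (chr17:73804134-73832094, + strand). Its control values ran from 29.9 to 48.5 normalized CPM with a median of 37.3, and its rilmenidine values were 35.9, 37.5, 34.3 and 30.9. Of the treated kidneys 3 lay below the control median, and all 4 stood inside the control range. Ehd3 had the smallest unadjusted p of the 10 genes in edgeR (adjusted p = 0.688), at a log2 fold change of −0.21 ± 0.16 (SE), from 39.5 ± 7.48 to 34.7 ± 2.81, and an interval of the fold from 0.679 to 1.10. The value stayed below 0 in every setting, and reached −0.49 without the 4 control kidneys high in Malat1 (unadjusted p = 0.0156, adjusted p = 0.999). The Ehd3 value was 0.325 to 0.534 times the Plvap value within a kidney, with the lowest ratio in rilmenidine 4 and the highest in control 5, and the groups overlapped.

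Sox17, a transcription factor of arterial endothelium, varied most (chr1:4490931-4497354, − strand). Control kidneys held 15.7, 5.99, 5.81, 12.6, 19.7 and 5.85 normalized CPM in order of number, with a median of 9.31, and rilmenidine kidneys 11.6, 9.77, 8.40 and 4.06. The control kidneys divided into 3 at 12.6 or more and 3 at 5.99 or less, and the 3 upper ones are among the 4 high in Malat1. Its coefficient of variation in the control group was 54.6%, against 18.6% for Flt1. The log2 fold change was −0.38 ± 0.40 (SE), from 10.9 ± 5.98 to 8.46 ± 3.21, with an interval of the fold from 0.425 to 1.39 (adjusted p = 0.790). It turned to 0.47 without the 4 control kidneys high in Malat1, and was −0.08 without control 5 and −0.12 without rilmenidine 4.

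Egfl7, a secreted protein of the vessel matrix and host gene of miR-126a, lies at chr2:26580014-26593120 on the + strand. Control kidneys held 7.86 to 15.6 normalized CPM with a median of 12.1, and rilmenidine kidneys 11.0, 9.77, 13.3 and 8.12. Control 1 was the lowest here, not control 3. The log2 fold change was −0.18 ± 0.25 (SE), from 11.8 ± 2.60 to 10.6 ± 2.18, with an interval of the fold from 0.612 to 1.27 (adjusted p = 0.849). Without rilmenidine 4 the value was −0.06, and without rilmenidine 3 it was −0.33. Agpat2, with 16 to 78 reads, overlaps its 3′ end on the other strand by 64 bases. Gm20532, on the same strand, shares 6482 bases with Egfl7, its 3′ end included, and had 0 reads in every library. How many Egfl7 reads these overlaps cost was not tested.

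**Figure D3:**
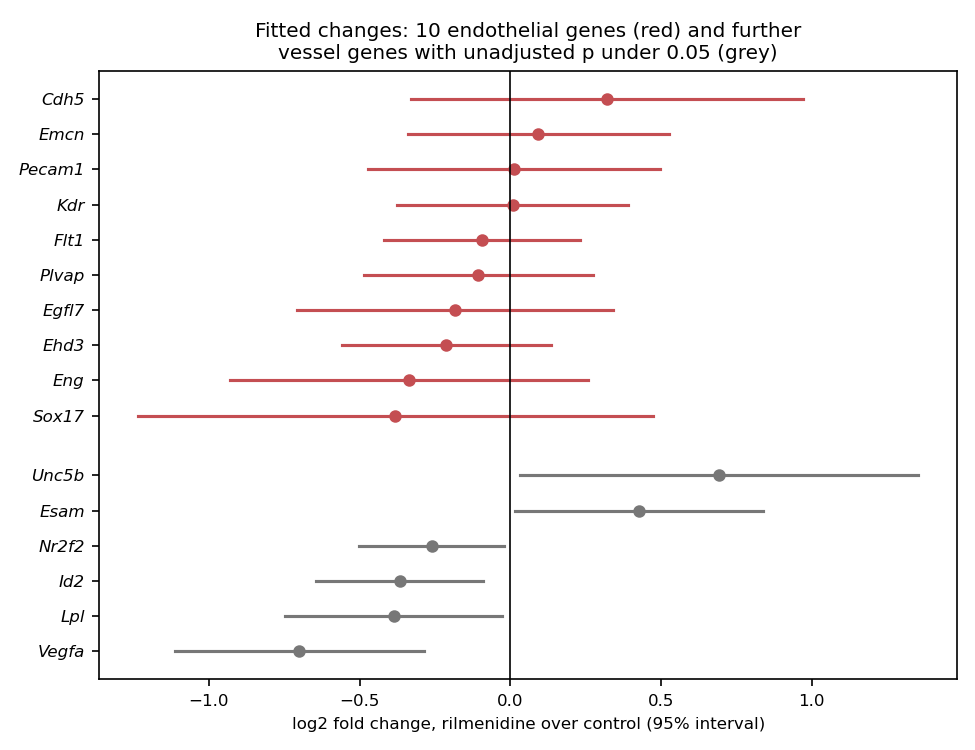
Log2 fold change of rilmenidine over control (horizontal axis) with its 95% interval from edgeR, for the 10 endothelial genes in red and the 6 further vessel genes at an unadjusted p under 0.05 in grey. The interval crosses 0 for all 10 endothelial genes and is widest for Sox17, from −1.23 to 0.47.

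Across kidneys, most of the 10 genes were low in control 3. That kidney was the lowest of the 10 for 7 of the 10 genes (Pecam1, Kdr, Flt1, Emcn, Cdh5, Plvap and Ehd3), whereas it was the lowest for 12.9% of all genes tested. It lay under the median kidney for 9 of the 10 genes, against 49.7% of all genes. Summed over the 10 genes, control 3 held 261 normalized CPM, and the other 9 kidneys held 367 to 452. Rilmenidine 4 was also under the median kidney for 9 of the 10, but by less, with a median log2 offset of −0.26 against −0.62 in control 3. Without control 3, 9 of the 10 genes lay below 0 and their median was −0.18, beside 0.01 over all genes tested, again with 0 past the threshold. Control 3 is named here because it was low in these same genes, so leaving it out lowers their values by selection. No conclusion on rilmenidine is drawn from that shift.

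**Figure D4:**
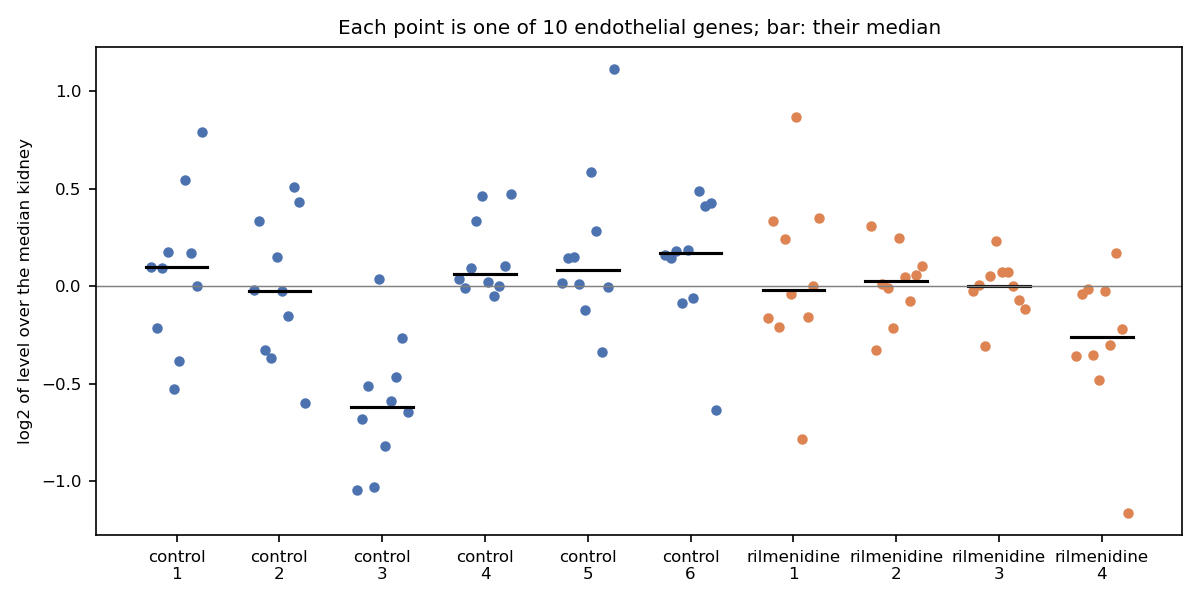
Log2 level of each of the 10 endothelial genes over its median kidney (vertical axis), 1 point per gene in each of the 6 control (blue) and 4 rilmenidine (orange) kidneys, with a bar at the median of the 10. Control 3 has 9 points below 0 and its bar at −0.62, and the other bars lie between −0.26 and 0.17.

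The markers of other renal cells in control 3 were read beside this. Its summed markers were the lowest of the 10 kidneys for podocytes (80.5 normalized CPM, 88.4 to 167 elsewhere, 7 of 7 markers detected), immune cells (78.0, 102 to 228 elsewhere, 9 of 10 detected), fibroblasts (82.2, 105 to 237 elsewhere, 6 of 6) and blood (980, 1802 to 8803 elsewhere, 5 of 5). Proximal tubule markers, the bulk of the cortex, held 9010 in control 3 within 8468 to 10176 over all kidneys, and the mural cells that wrap the vessels held 81.3 within 63.4 to 98.3. Podxl gave the most reads of the podocyte list, 926 over all libraries, and which renal cells held them was not tested. Cd79a, a B-cell marker, was at 0 in all libraries. Between the groups, summed immune markers were 78.0 to 228 in control (median 103) and 135 to 162 with rilmenidine (median 146), and all 4 treated kidneys exceeded every control but control 2. Thick ascending limb markers were 1291 to 2026 (median 1337) and 1595 to 2623 (median 2174). Their part in the endothelial values was not tested.

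**Figure D5:**
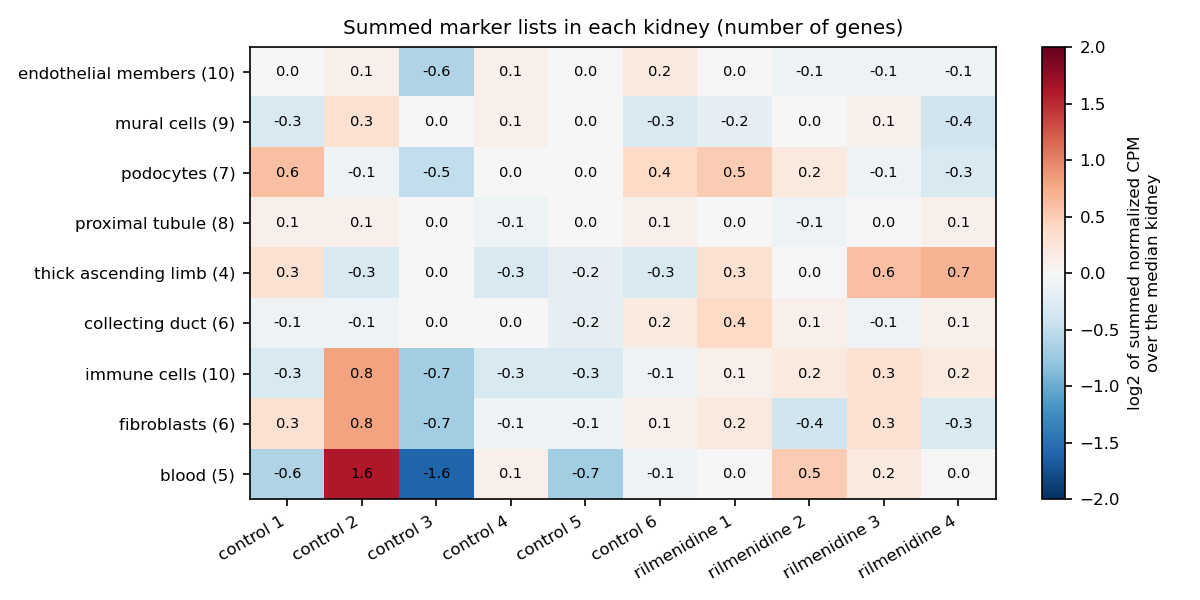
Summed normalized CPM of each marker list in each kidney, as log2 over the median kidney, with the number of genes of each list in brackets. Control 3 is lowest for the endothelial genes, podocytes, immune cells, fibroblasts and blood, and near 0 for the proximal tubule and mural cells.

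The further genes of the vessel wall came from 7 lists by role. Of 86 genes matched, 59 passed the filter on low counts, and 0 passed the threshold. At an unadjusted p under 0.05 there were 6 (10.2%, beside 10.6% of all genes), of which 2 were higher and 4 lower with rilmenidine. In 1 of the 59 (1.69%, beside 1.67%) the groups did not overlap: this was Smad7, an inhibitor of TGF-beta signaling that was looked up after its values were seen, at 14.0 to 18.0 in control and 13.3, 13.6, 12.6 and 10.3 with rilmenidine (log2 fold change −0.33, adjusted p = 0.594). In all, 32 of the 59 lay above 0 and 27 below, with a median of 0.05.

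Among 19 tested of 25 other pan-endothelial genes, 1 was higher at an unadjusted p under 0.05 and 0 were lower, with a median log2 fold change of 0.13. This was Esam, an adhesion molecule of endothelial junctions, with 11.2 to 22.2 normalized CPM in the control kidneys and 27.3, 26.1, 25.5 and 20.9 with rilmenidine. Of these, 3 treated kidneys lay above every control, and rilmenidine 4 fell within the control range (log2 fold change 0.43 ± 0.19, unadjusted p = 0.0429, adjusted p = 0.455). Without the 4 control kidneys high in Malat1 the value was 0.21. The lowest of the list was Cav1, the coat protein of caveolae, at −0.37. The ETS factors Erg and Fli1, named for the motif above, stood at 0.24 and 0.33 and did not pass (adjusted p = 0.816 and 0.863).

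Of 8 glomerular capillary genes 4 were tested, with a median of −0.13 and 1 lower at an unadjusted p under 0.05. Lpl, which encodes lipoprotein lipase, held 1259 to 2276 normalized CPM in control and 1289, 1151, 1397 and 1283 with rilmenidine (log2 fold change −0.39, adjusted p = 0.441). Its 2 highest controls, control 3 and 4 at 2055 and 2276, are among the 4 high in Malat1, and without those 4 the Lpl value was −0.27. The 10 endothelial genes together summed to 261 to 452 in the control kidneys, and which renal cells held the Lpl reads was not tested. Plat, the tissue plasminogen activator, was the lowest at −0.47 and Sema3g, a secreted semaphorin, the highest at 0.15. In the arterial and Notch list 8 of 12 were tested, with a median of 0.08. Unc5b, a netrin receptor of arterial and tip cells, was the highest at 0.69 ± 0.31 (unadjusted p = 0.0406, adjusted p = 0.449), with 2.49 to 5.78 normalized CPM in control and 5.22, 8.15, 9.10 and 8.43 with rilmenidine. The Unc5b value was 0.52 without the 4 control kidneys high in Malat1. Dll4, the Notch ligand of arterial endothelium, was the lowest at −0.11.

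Venous and lymphatic genes, 4 tested of 7 matched, had a median of −0.13. Nr2f2, the nuclear receptor of venous identity, was the lowest of them, with 145 to 173 normalized CPM in control and 136, 134, 120 and 149 with rilmenidine (log2 fold change −0.26 ± 0.11, unadjusted p = 0.0351, adjusted p = 0.441). Without the 4 control kidneys high in Malat1 the Nr2f2 value was −0.17, and which renal cells held its reads was not tested. Flt4, VEGF receptor 3 of lymphatic endothelium, was the highest at 0.17. Among VEGF and angiopoietin ligands and co-receptors, 7 tested of 10, the median was −0.09, with Vegfa the lowest and Apln, the ligand of the apelin receptor, the highest at 0.61.

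The BMP and TGF-beta signaling genes around endoglin had 10 tested of 13 listed, with a median of −0.16. Of these, 7 lay below 0 (70.0%, beside 49.7% of all genes tested), and whether that share differs was not tested. Id2, a target of BMP signaling that many renal cells express, held 611 to 816 normalized CPM in control and 647, 580, 494 and 480 with rilmenidine (log2 fold change −0.37 ± 0.13, unadjusted p = 0.0123, adjusted p = 0.335). Bmpr2, the type II BMP receptor, was the lowest of the list at −0.38 and Tgfbr3, betaglycan, the highest at 0.17. In the nitric oxide and endothelin list, the vasodilator and constrictor genes, 7 of 11 were tested with a median of 0.12 and 0 at an unadjusted p under 0.05. The soluble guanylate cyclase subunits gave its extremes, −0.49 for Gucy1a1 and 0.28 for Gucy1b1. Nos3, the endothelial nitric oxide synthase, had at most 1 count in any library and Edn1, endothelin 1, at most 11, so both missed the filter on low counts. When every gene with 1 count or more was tested, neither passed.

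Genes with the profile over 10 kidneys nearest to the mean of the 10 were sought by root mean square distance of standardized log2 CPM. The search covered 5817 genes with a mean of at least 20 normalized CPM. It left out the 10 but not the further vessel genes at that level, none of which is among those named next. The nearest were Cyp2d22 (0.378), Col1a2 (0.437), Gng11 (0.472), Spry1 (0.491) and Clcn7 (0.491), where the median gene lay at 1.35. They share libraries and depth with the 10. Among the 10 themselves Pecam1 lay nearest to their mean (0.399) and Egfl7 farthest (1.17).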

How the data were processed

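Kidney libraries from 6 control and 4 rilmenidine-treated mice were made by a protocol that captures transcript 3′ ends. The authors deposited raw counts of reads per Ensembl gene. Per the labels, reads were demultiplexed with bcl2fastq 1.8.4, trimmed with Trimmomatic 0.32, mapped to mm10 with STAR 2.5.2b and counted with featureCounts 1.5. Annotation release, strand setting and the handling of molecular identifiers are not given in the sources used here. If duplicates were not collapsed, counts overstate molecules, and intervals cover counting error and the spread between these kidneys only. The extraction text of the labels speaks of liver, while their tissue field says kidney.

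Groups and replicate numbers came from the labels. The supplementary methods name more control kidneys than the 6 analysed here. Of 43629 genes, 42548 were found in GENCODE M21 (GRCm38), the source of gene positions. Genes that reached 6 reads in 66.6% of the libraries were normalized by RLE and tested in edgeR 4.0.16 (R 4.3.3, quasi-likelihood test, 10 libraries, no covariates), with Benjamini-Hochberg adjustment over all 10055 genes and a threshold of 0.05. The test was tried on simulated data. The common biological coefficient of variation was 0.221. Log2 levels used a prior count of 2.

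The 10 members and all lists were chosen with earlier results of these data known. Of 87 further vessel genes, 86 matched by symbol. Named genes were the members, the highest and lowest gene of each further list and up to 4 with an unadjusted p under 0.05, and the 5 nearest profiles. Alternatives were TMM, 2 other count filters, DESeq2 1.42.0, the likelihood ratio test and covariates (library size, Malat1). A receptor term marked the libraries in which odorant and pheromone receptor genes took 10 CPM or more. It was set from the counts and is not a batch given by the labels. The rest were only those libraries, no control kidneys over 1000 Malat1 CPM, the replicate number as a block, a threshold of 0.1 and leaving out each kidney.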

Additional observations from a re-analysis of the deposited data

Results flagged for a closer look

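A kidney far from the rest of its own group was looked for in 50 groups of values by Dixon's criterion at the 95% level. Control and rilmenidine kidneys were separate groups, and the 4 values found were all from control kidneys. Chance alone flags about 1 in 20 groups. Pecam1 was 9.13 normalized CPM in control 3, with the nearest other control at 18.6. The 10 endothelial genes, Pecam1 included, summed to 261 in control 3, with the nearest other control at 407. Summed immune markers were 228 in control 2, with the nearest other at 125. Summed blood markers were 8803 in control 2, with the nearest other at 3244, and the summed endothelial genes of that kidney were 421, within the range of the others. The cause of these values was not tested.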

How the results depend on the processing

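No endothelial member passed the threshold under any setting tried, including a threshold of 0.1, and the median of the 10 stayed between −0.18 and −0.02. With at least 10 counts in every sample only 6 members were tested, and DESeq2 gave an adjusted p for 7, not for Cdh5, Eng and Sox17. Counts over all genes moved from 0 to 241 when every gene with a count was tested (where 1 further vessel gene, Vegfa, passed), 44 in the likelihood ratio test and 60 in DESeq2, and leaving out a kidney gave 0 to 37 (33 without control 2, 37 without control 6, 6 without rilmenidine 1). The cause was not tested. Of the members, 5 changed sign in at least 1 setting. Egfl7, Eng, Plvap and Ehd3 stayed below 0, and Cdh5 above 0 (0.11 to 0.58), in every setting that tested them. Kdr was −0.00036 with at least 10 counts in every sample, −0.15 with library size or Malat1 as a covariate, −0.0096 with the receptor term and −0.23 without the 4 kidneys high in Malat1. Pecam1 was −0.020, −0.087 and −0.13 and Sox17 0.17, 0.48 and 0.47 with library size, Malat1 and without those kidneys. Leaving out a kidney gave −0.11 to 0.10 for Kdr, −0.12 to 0.11 for Pecam1 and −0.031 to 0.20 for Emcn. With Malat1 as a covariate Plvap was −0.42 and Ehd3 −0.45 (unadjusted p = 0.0326 and 0.0170, adjusted p = 1.00 by edgeR), so that 2 of the 10 members, and 3.03% of all genes, were at an unadjusted p under 0.05.

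Kidneys with the same replicate number showed no sign of deviating together (correlations −0.08 to 0.08). These correlations had no reference spread, so they cannot exclude that the numbers pair the kidneys. With the number as a block the median of the members was −0.02, Flt1 was 0.037, 3 genes of all passed, and no member did. Intervals were widest for Sox17, Cdh5, Eng and Egfl7, which are also the members with the fewest reads.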
